A study of Drosophila melanogaster with 136 samples.

Results

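The septate junction genes described here are 10 Drosophila genes, sinu, kune, Cont, Lac, crim, cold, pasi1, Nrx-IV, cora and Nrg, out of 17477 genes counted in every mRNA table. They were listed as claudins, Ly6 proteins and adhesion proteins of the septate junction and were found by FlyBase identifier in all 6 mRNA tables. The list was drawn up with the response to Ago1 RNAi already seen, so the Ago1 RNAi values below are a description without a test. All 10 passed the filter on low counts in every table.

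Septate junctions seal the space between neighbouring epithelial cells of insects, in the place that tight junctions take in vertebrates. Pleated septate junctions form in ectodermal epithelia and between glia of the blood-nerve barrier, where they close the paracellular route, and smooth septate junctions form in the gut. A core of adhesion proteins, scaffolds and claudins is assembled into a large, stable complex, and Ly6 proteins are needed for that assembly in the secretory pathway. Ago1 encodes the Argonaute protein that carries miRNAs and represses their target mRNAs.

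The samples are poly(A) RNA libraries of S2 cells and of staged embryos, 68 in all, with between 8964741 and 35494475 counts in genes per library. S2 is an established embryonic cell line with features of hemocytes, the blood cells of the fly. In the RNAi experiment, 3 clones labelled WT and 3 labelled dora each received double-stranded RNA against Ago1 or, as the control, against GFP (12 libraries). Dora is the fly ortholog of the ubiquitin ligase substrate receptor ZSWIM8, a protein that lets certain target RNAs bring about the decay of the miRNAs they pair with. A separate set holds 3 WT and 3 dora clones without RNAi. Another compares lines labelled ago1, h, kah, wgn and zfh1, the transcripts proposed as triggers of miRNA decay, with WT cells (12 libraries, 2 per line). Embryos labelled dora[A] or dora[B] were collected at 8-12, 12-16 and 16-20 h beside WT embryos of their own (2 libraries per genotype and time, 12 per allele). CR43432 mutants were collected at the same times, and their WT controls also at 0-2 and 2-4 h. This set has 14 libraries, with 1 per genotype at 16-20 h. Its titles say line1 or line2, where those of the dora[A] and dora[B] sets say rep1 or rep2. Line numbers are called replicates 1 and 2 below, so a difference between lines is part of the spread in that set. The labels do not describe the lesions or the origin of the clones, so p-values measure the spread between these libraries only. Nothing beyond WT, dora or a line's name is given for the cells.

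The label S2 was checked against marker genes. The hemocyte GATA factor gene srp stood at 264 to 529 CPM (the read count scaled to the size of its library, with sizes corrected by TMM) in every S2 library, while the hemocyte receptor genes NimC1 and Sr-CI reached at most 0.171 and 0.279 CPM. The epithelial factor genes grh and trh reached at most 0.473 and 0.317 CPM and the glial factor genes repo and gcm at most 0.186 and 0.17 CPM. Other markers of these lists were present, with crb at 11 to 237 CPM, the glial receptor gene moody at 74.1 to 171 CPM and the hemocyte matrix genes Col4a1 and vkg at 49 to 15949 and 34.3 to 11689 CPM. The neuronal genes elav and brp stood at 39.4 to 212 and 14.3 to 225 CPM.

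AGO1 itself was lower in every knockdown. In WT clones it stood at 744, 491 and 573 CPM under GFP RNAi and at 218, 245 and 228 CPM under Ago1 RNAi (log2 fold change -1.39, SE 0.13). In dora clones it stood at 478, 436 and 438 CPM under GFP RNAi and at 204, 198 and 205 CPM under Ago1 RNAi (-1.15, SE 0.13). The groups did not overlap in either genotype, and the share of AGO1 mRNA that was left was 0.293 to 0.498 of the same clone's control in WT and 0.426 to 0.469 in dora. The clone with the lowest remaining share was WT clone 1. Dora mRNA stood at 134, 136 and 138 CPM in WT and at 83.5, 111 and 84.8 CPM in dora clones under GFP RNAi.

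Under Ago1 RNAi, 8 of the 10 genes were past the edgeR threshold (adjusted p under 0.05) and higher in WT clones, against 25.6% of all 7861 genes tested called higher, and 9 of 10 were in dora clones, against 24.6%. These counts follow from how the list was made. The median log2 fold change of the 10 genes was 2.79 in WT and 2.4 in dora clones, and that of all genes was -0.02 and -0.01. Only cora in both genotypes and Nrg in WT were not past the threshold, and no gene of the list was lower. This fit does not pair the libraries of a clone. Within WT clones 1 to 3 the log2 ratios were 0.5, 0.17 and 0.46 for cora and 0.29, 0.9 and 0.55 for Nrg. Those of cora in dora clones were 0.22, 0.21 and 0.21. Every gene kept its direction in both genotypes when the scaling, the filter, the tool or single libraries were changed. The 10 genes lie on chromosome arms 2L, 2R, 3L, 3R and X, and 4 of them overlap another gene of the annotation. Among those that overlap none, sinu (FBgn0010894) spans 3L:5559470-5561598 and Cont (FBgn0037240) spans 3R:4381306-4387018 in Release 6, the assembly that dm6 represents.

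The claudins differed in size. In WT clones sinu, a claudin of the pleated septate junction, stood at 27.7, 23.4 and 20.6 CPM under GFP RNAi and at 525, 369.6 and 391 CPM under Ago1 RNAi. In dora clones it stood at 20.4, 19.0 and 16.2 CPM and at 173, 158 and 160.3 CPM. Every knockdown library was above every control library, by 17.9-fold on average in WT (log2 4.16, SE 0.16) and by 8.85-fold in dora (3.15, SE 0.16). In WT clones kune, the other claudin of the list, stood at 28.1, 29.5 and 27.4 CPM and at 173, 123 and 125 CPM. In dora clones kune stood at 22.3, 23.9 and 23.7 CPM and at 64.3, 70.8 and 69.0 CPM. Its groups did not overlap either, with a difference of 2.31 (SE 0.13) in WT and 1.54 (SE 0.13) in dora clones, which makes it the smaller response of the pair in both genotypes.

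The Ly6 proteins crim and cold are small GPI-anchored proteins needed to build the junction complex. In WT clones crim stood at 4.61, 3.87 and 4.85 CPM under GFP RNAi and at 80.2, 52.9 and 57.6 CPM under Ago1 RNAi (3.84, SE 0.22). In dora clones it stood at 2.98, 1.70 and 2.92 CPM and at 23.9, 26.4 and 32.0 CPM (3.44, SE 0.23). Control values of crim rest on few reads, 64 to 102 counts per library in WT and 26 to 52 in dora clones. For cold, WT clones held 12.1, 13.9 and 12.9 CPM under GFP RNAi and 132, 124 and 121 CPM under Ago1 RNAi (3.28, SE 0.13). In dora clones cold stood at 14.3, 12.7 and 15.4 CPM and at 59.1, 57.3 and 75.0 CPM (2.18, SE 0.12). Neither gene's groups overlapped, and the controls of cold were alike in both genotypes while its knockdown values were lower in all 3 dora clones than in all 3 WT clones. The spans of crim and cold overlap neighbouring genes by 64 and 24 bases, so a few reads could be shared, and whether the counting used strand is not given in the sources used here.

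Cont, Nrx-IV and Nrg are adhesion proteins whose relatives in vertebrates, contactin, Caspr and L1-type proteins, join axons and glia. In WT clones Cont stood at 178, 137 and 142 CPM under GFP RNAi and at 2038, 1360 and 1484 CPM under Ago1 RNAi (3.42, SE 0.17). In dora clones it stood at 126, 119 and 143 CPM and at 759, 728 and 886 CPM (2.61, SE 0.17). Nrx-IV, the Caspr-like protein, was higher by 1.95 (SE 0.12) in WT clones, from 148 to 157 CPM up to 522 to 706 CPM, and by 1.44 (SE 0.12) in dora clones, from 132 to 151 CPM up to 352 to 393 CPM. Both genes were higher in every knockdown library than in any control library of the genotype.

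Nrg, the L1-type protein, varied far more between clones than the others did. In WT clones it stood at 321, 194 and 263 CPM under GFP RNAi and at 393, 363 and 385 CPM under Ago1 RNAi (0.55, SE 0.43). In dora clones it stood at 187, 57.4 and 76.1 CPM and at 371, 162 and 281 CPM (1.35, SE 0.44). Each of the 6 clones had more Nrg under Ago1 RNAi than under GFP RNAi, but the dora groups overlapped, since clone 1 held more in the control than clone 2 in the knockdown. Protein-coding genes lie within the spans of Nrg (PIP82) and Nrx-IV (CG32099).

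Lac, a GPI-anchored immunoglobulin protein that shapes tracheal tubes, went against the order of the genotypes. In WT clones it stood at 215, 175 and 159 CPM under GFP RNAi and at 679, 693 and 632 CPM under Ago1 RNAi (1.87, SE 0.13). In dora clones it stood at 80.6, 65.0 and 85.6 CPM and at 651, 591 and 681 CPM (3.06, SE 0.14). The knockdown levels of both genotypes overlapped, and the controls did not.

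For pasi1, a multipass membrane protein of the junction, WT clones held 5.38, 6.85 and 6.13 CPM under GFP RNAi and 70.9, 65.1 and 61.7 CPM under Ago1 RNAi (3.43, SE 0.21). In dora clones pasi1 stood at 3.15, 4.64 and 5.89 CPM and at 29.2, 31.2 and 41.4 CPM (2.88, SE 0.21). The scaffold gene cora, which encodes a FERM-domain protein of the inner face of the junction, had the smallest difference. It stood at 990.4, 857 and 778 CPM under GFP RNAi and at 1405, 963 and 1073 CPM under Ago1 RNAi in WT clones (0.39, SE 0.19), and its groups overlapped. In dora clones cora gave 0.21 (SE 0.19), with 900.3 to 1313 CPM under GFP RNAi and 1041 to 1518 CPM under Ago1 RNAi. The differences thus ranged from 0.39 for cora to 4.16 for sinu in WT clones and from 0.21 for cora to 3.44 for crim in dora clones.

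**Figure D1:**
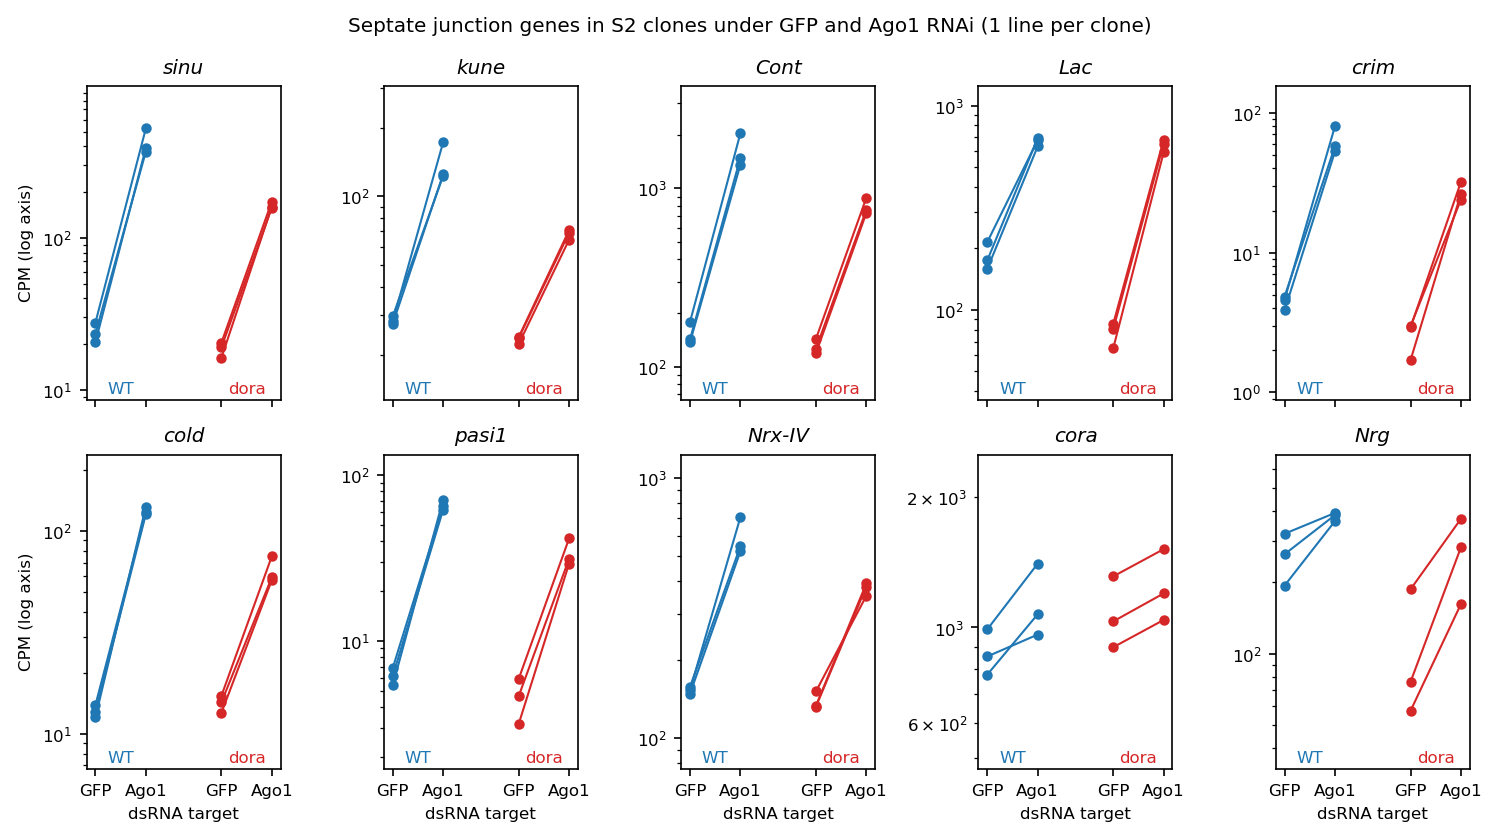
Levels of the 10 genes in CPM on a log axis, with 1 line per clone from its GFP RNAi to its Ago1 RNAi library, WT clones in blue and dora clones in red. The lines of sinu climb from 20.6 to 27.7 CPM up to 369.6 to 525 CPM in WT clones, those of cora span the narrowest range, from 778 to 1405 CPM in WT clones, and the red lines start lower for Lac but end at the level of the blue ones.

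Because the knockdowns of a clone share that clone, the log2 ratio of Ago1 to GFP RNAi was also taken clone by clone. For 6 genes (sinu, kune, Cont, cold, pasi1 and Nrx-IV) all 3 dora clones had a smaller ratio than all 3 WT clones, a pattern held by 10.6% of all genes. Lac and Nrg had a larger ratio in all 3 dora clones, as 9.72% of all genes did, and crim and cora overlapped. The ratios of cold were 3.45, 3.15 and 3.23 in WT clones and 2.05, 2.18 and 2.29 in dora clones. Those of Lac were 1.66, 1.99 and 1.99 in WT and 3.01, 3.18 and 2.99 in dora clones. The list was chosen on these libraries, so these positions are a description. The ratios of AGO1 itself overlapped, at -1.77, -1.0 and -1.33 in WT and -1.23, -1.14 and -1.09 in dora clones. The part of the AGO1 knockdown in the sizes was not tested.

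Set side by side under the same RNAi, 6 of the 10 genes were past the threshold and lower in dora than in WT clones under Ago1 RNAi, against 0.216% of all genes called lower, and 1 was under GFP RNAi, against 0.916%. Under Ago1 RNAi the differences were -1.39 (SE 0.14) for sinu, -1.21 (SE 0.20) for crim, -1.04 (SE 0.12) for kune, -1.04 (SE 0.16) for Cont, -0.97 (SE 0.12) for cold and -0.65 (SE 0.11) for Nrx-IV. Lac gave -0.06 (SE 0.13) there, and under GFP RNAi it was the gene past the threshold (-1.25, SE 0.13). Both comparisons use the libraries the list was chosen on and nothing is read from the counts.

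Markers of other cell types were read beside these genes. Of 3 epithelial markers (crb, grh, trh), none had non-overlapping groups, and their summed level was 11 to 62.5 CPM under GFP RNAi and 43.8 to 222 CPM under Ago1 RNAi in WT clones, and 24.5 to 61.9 and 47.7 to 176 CPM in dora clones. Nearly all of it was crb, with grh at 0 in all 3 WT knockdowns. Of 3 glial markers (moody, repo, gcm), none had non-overlapping groups, with sums of 74.1 to 105 CPM and 92.5 to 113 CPM in WT and 79.7 to 92.5 and 90.4 to 94.3 CPM in dora clones. Of 3 neuronal markers (elav, brp, nSyb), elav was higher in every knockdown library of both genotypes, and nSyb too in dora clones. The neuronal sum was 82.2 to 125 CPM under GFP RNAi and 179 to 263 CPM under Ago1 RNAi in WT clones, and 87.5 to 95.7 and 159.6 to 168 CPM in dora clones, with nSyb at 0.3 CPM or less in every RNAi library. Of 8 hemocyte markers, srp was higher in every knockdown library, and Hml was lower in both genotypes, with Pxn lower in WT and eater in dora clones. The hemocyte sum was 2149 to 19454 CPM under GFP RNAi and 1145 to 9359.7 CPM under Ago1 RNAi in WT clones, and 4508 to 28083 and 1681 to 8088 CPM in dora clones. The share of all genes with non-overlapping groups is not given here, so these counts of markers are a description. For scale, edgeR called 25.6% of all genes higher and 28.4% lower in WT clones, and 24.6% and 26.7% in dora clones. Fewer cells of a type and less RNA per cell cannot be told apart in bulk libraries. The part of these markers in the junction gene levels was not tested.

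Other genes of the septate junction were taken from a list of 22, of which 19 passed the filter on low counts. In WT clones 11 rose and 4 fell in the edgeR test, with a median of 0.71, and in dora clones 11 rose and 3 fell, with a median of 0.80. All genes tested gave 25.6% higher and 28.4% lower in WT clones and 24.6% higher and 26.7% lower in dora clones. The list was written with earlier results of these data known. The 4 genes that rose most in WT clones were the same in dora clones. Tsf2, an iron-binding transferrin of the junction, rose by 4.07 (SE 0.15, adjusted p = 1.47e-08) in WT and by 3.49 (SE 0.15, adjusted p = 6.03e-08) in dora clones. The claudin-like gene pck rose by 3.14 (SE 0.13, adjusted p = 3.05e-08) and by 2.63 (SE 0.13, adjusted p = 1.41e-07). Mcr, a macroglobulin-related protein, rose by 3.01 (SE 0.15, adjusted p = 1.07e-07), from 149 to 1199 CPM on average, and by 2.4 (SE 0.14, adjusted p = 4.99e-07). The Ly6 gene crok rose by 2.88 (SE 0.20, adjusted p = 1.06e-06) and by 2.86 (SE 0.20, adjusted p = 1.49e-06). nrv1, a beta subunit of the sodium pump, fell by 0.64 (SE 0.10, adjusted p = 0.00022) and by 0.68 (SE 0.10, adjusted p = 0.00015). The other pump subunits, chosen after their values were seen, differed from it in WT clones, where nrv2 rose (0.70, SE 0.09, adjusted p = 7.23e-05) and Atpalpha gave -0.04 (SE 0.11, adjusted p = 0.769).

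The other genes of the list that fell were at low level. The tricellular junction gene aka, named bark in the reference, fell from 9.07 to 0.862 CPM in WT (-3.35, SE 0.73, adjusted p = 0.00274) and from 7.19 to 1.13 CPM in dora clones (-2.64, SE 0.71, adjusted p = 0.00997). Ssk, a protein of the smooth septate junction, fell from 5.34 to 1.5 CPM in WT (-1.81, SE 0.31, adjusted p = 0.000544) and from 4.65 to 2.46 CPM in dora clones (-0.92, SE 0.31, adjusted p = 0.0257). In dora clones Ssk no longer passed when any of 5 of the 6 libraries was left out (adjusted p = 0.0595 to 0.0697). Tsp2A, another smooth junction gene, fell in WT (-2.26, SE 0.81, adjusted p = 0.0325, 0.16 against 0.869 CPM) and gave -0.21 (SE 0.81, adjusted p = 0.852) in dora clones. In WT it no longer passed when any of 4 of the 6 libraries was left out (adjusted p = 0.0765 to 0.0968). Gli, of the tricellular junction, also chosen after its values were seen, gave -1.65 (SE 0.70, adjusted p = 0.0698) in WT clones. With clone as a blocking term it passed, at -1.69 (adjusted p = 4.26e-05) in WT and -1.32 (adjusted p = 0.000555) in dora clones. The smooth junction genes mesh and hoka and the adhesion gene Fas3 were not tested, with means of 0.825 CPM or less.

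Adherens junction and polarity proteins act apical to the septate junction. Of their 13 genes, all tested, 6 rose and none fell in WT clones (median 0.32), against 25.6% of all genes called higher, and 5 rose and none fell in dora clones (median 0.34), against 24.6%. With clone as a blocking term, since the titles name the clone of each library, 8 rose and 1 fell in WT and 9 rose in dora clones, where all genes gave 33.7% higher and 36.1% lower in WT and 32.5% higher in dora clones. alpha-Cat, which links cadherin to actin, rose by 0.86 (SE 0.13, adjusted p = 0.000232) in WT and by 0.80 (SE 0.13, adjusted p = 0.000422) in dora clones. The catenin gene p120ctn rose by 0.63 (SE 0.13, adjusted p = 0.00176) and by 0.48 (SE 0.13, adjusted p = 0.00875). In WT clones cno (0.47, SE 0.10, adjusted p = 0.00271) and pyd (0.35, SE 0.11, adjusted p = 0.0191) rose as well, though pyd did not pass when any 1 of 3 libraries was left out (0.0525 to 0.0747). In dora clones ed, an immunoglobulin adhesion protein, had the largest rise (1.28, SE 0.42, adjusted p = 0.0262), which did not pass without the filter (0.0581) or when any 1 of 4 of the 6 libraries was left out (0.0684 to 0.0957). The apical determinant gene crb gave 1.76 (SE 0.81, adjusted p = 0.0962) in WT and 1.25 (SE 0.80, adjusted p = 0.223) in dora clones, and passed with the clone block (1.79, adjusted p = 1.83e-06 and 1.15, adjusted p = 3.68e-05). Without the third GFP RNAi clone the WT count was 3, and the dora count was 3 without GFP RNAi clone 2, GFP RNAi clone 3 or Ago1 RNAi clone 2. Of other Ly6 genes bero, rtv, twit and qvr, none was tested in these clones, where their means were at most 0.127 CPM.

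**Figure D2:**
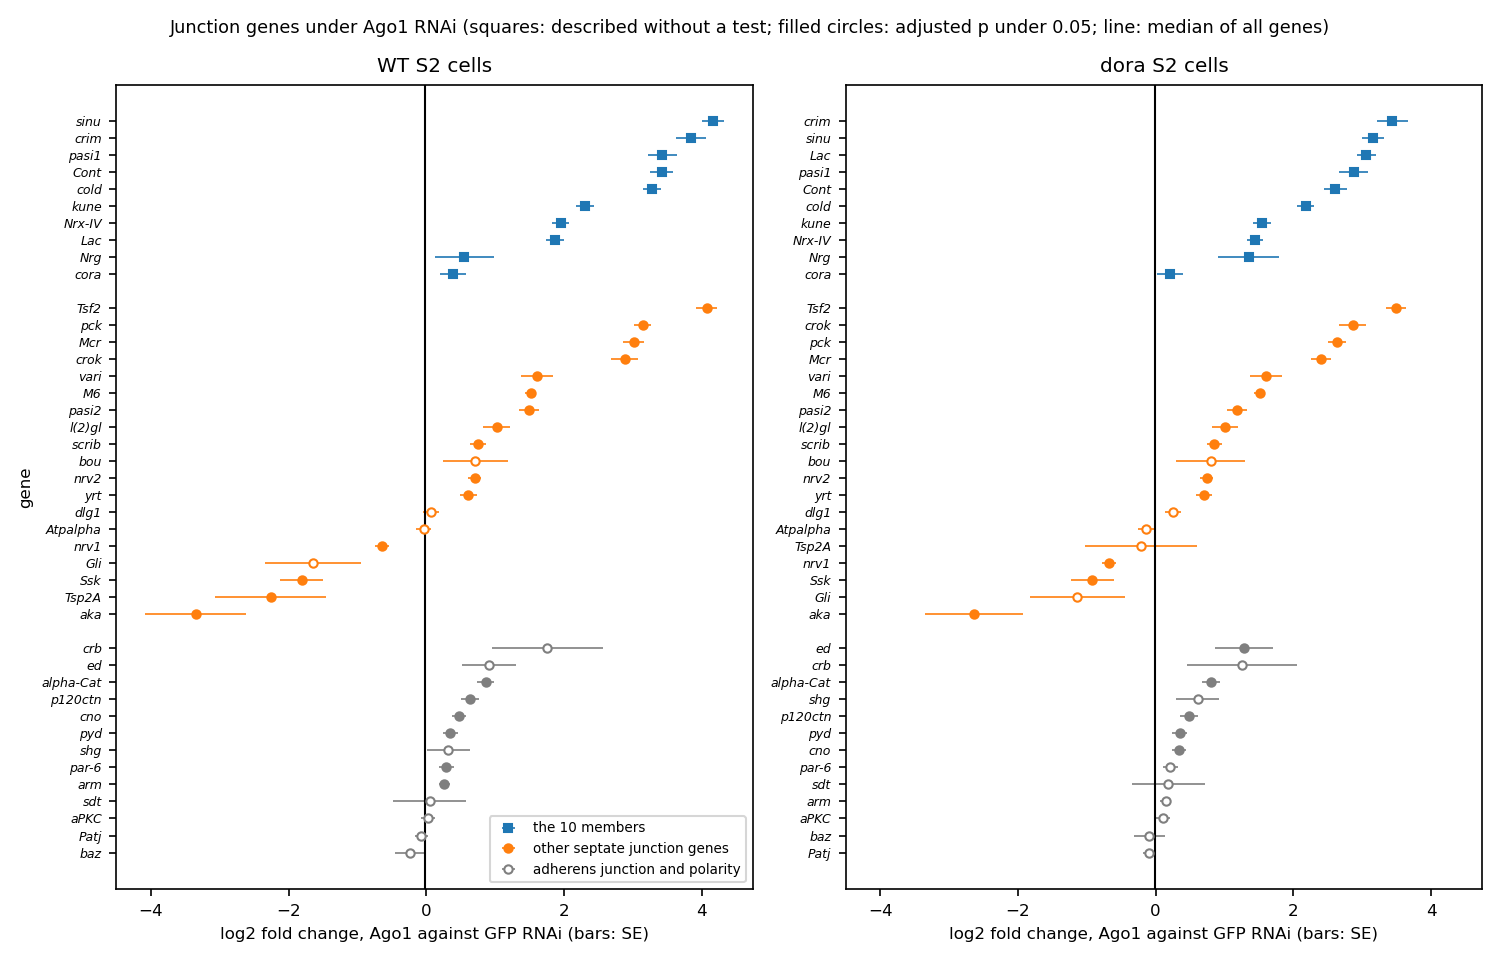
Log2 fold change of Ago1 against GFP RNAi with its SE for the 10 genes (squares), the other septate junction genes and the adherens junction and polarity genes (circles, filled where adjusted p was under 0.05), in WT clones on the left and dora clones on the right. The vertical line is the median of all genes tested, and each list is drawn in its own block. Along the axis pck, Mcr and crok lie within the range of the squares in both panels. Tsf2 does so in WT clones and lies just above that range in dora clones (3.49 against 3.44). To the left of the line lie aka and Ssk.

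The libraries of clones without RNAi were not used by the rule that chose the genes, although earlier results of them were known. None of the 10 genes was called between dora and WT clones with edgeR, against 2.73% of all 7294 genes called either way. At an unadjusted p under 0.05 there were 2, both lower, against 1699 of all 7294 genes. DESeq2 called 1 of the 10, Lac, and 795 of all genes. Lac stood at 297, 155 and 242 CPM in WT and at 83.3, 80.3 and 117 CPM in dora clones, without overlap (-1.31, SE 0.27, adjusted p = 0.0618). Over the alternatives its adjusted p ran from 1.54e-05 with DESeq2 to 0.184, and it passed without WT replicate 2 (0.0235). The claudin sinu was also without overlap, at 35.2, 25.3 and 29.4 CPM in WT and 19.6, 22.5 and 21.8 CPM in dora clones (-0.49, SE 0.14, adjusted p = 0.101). These 2 genes of 10 stand beside 15.7% of all genes that were lower without overlap. Nrg again varied most, at 222, 113 and 235 CPM in WT and 25.1, 26.6 and 135 CPM in dora clones (-1.61, SE 0.83, adjusted p = 0.324). For the other 7 genes the difference lay between -0.29 (pasi1) and 0.43 (cora). The order of Lac, lower in dora clones, was the one seen under GFP RNAi. Titles of both sets number the clones 1 to 3 and do not say whether they are the same clones. The repeat of this order is therefore not taken as independent. Dora mRNA overlapped here, at 129, 131 and 122 CPM in WT and 117, 132 and 104 CPM in dora clones.

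In the line labelled ago1, AGO1 stood at 539 and 621 CPM against 825 and 829 CPM in WT (-0.51, SE 0.17, adjusted p = 0.23). It was not called with edgeR, and the difference was smaller than under RNAi. None of the 10 genes was called with edgeR, against 0.0128% of all 7813 genes called either way. At an unadjusted p under 0.05 there were 2, both lower, against 1234 of all 7813 genes. DESeq2 called 1 of the 10, cora, and 290 of all genes. The members' median was -0.11, from -0.71 for cora to 0.27 for Lac. cora stood at 665 and 837 CPM against 1312 and 1150.4 CPM (-0.71, SE 0.16, adjusted p = 0.209), and passed without the ago1 library of replicate 3 (-0.89, adjusted p = 0.0331). sinu, the gene with the largest difference under Ago1 RNAi in WT clones, stood at 25.9 and 24.6 CPM against 29.5 and 25.4 CPM, with overlap (-0.12, SE 0.16).

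In the other lines edgeR called none of the 10 genes either. For h, kah and wgn the share of all genes called was 0%, and for zfh1 it was 0.0256%. At an unadjusted p under 0.05, h had 0 genes of the list, kah 3, wgn 3 and zfh1 1, all lower. Of all 7813 genes tested, 721, 386, 553 and 799 were under 0.05 in these lines. DESeq2 called 0 of the list in each, with 80, 27, 44 and 149 of all genes. In the wgn line 7 of the 10 genes were below WT without overlap, against 22.5% of all genes, in the kah line 5 of 10, against 18.1%, and in the h line 5 of 10, against 24.1%. The ago1 line had 4 below (24.4%) and 1 above (24.9%), and the zfh1 line had 3 below (23.9%) and 3 above (24.6%). Lac had the largest difference in the wgn line, at 89.0 and 116 CPM against 181 and 175 CPM (-0.80, SE 0.24, adjusted p = 0.638). In the kah line Nrx-IV stood at 174 and 150 CPM against 240.1 and 252 CPM (-0.60, SE 0.16, adjusted p = 0.815). All lines share the same 2 WT libraries, so their values are not independent of each other.

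**Figure D3:**
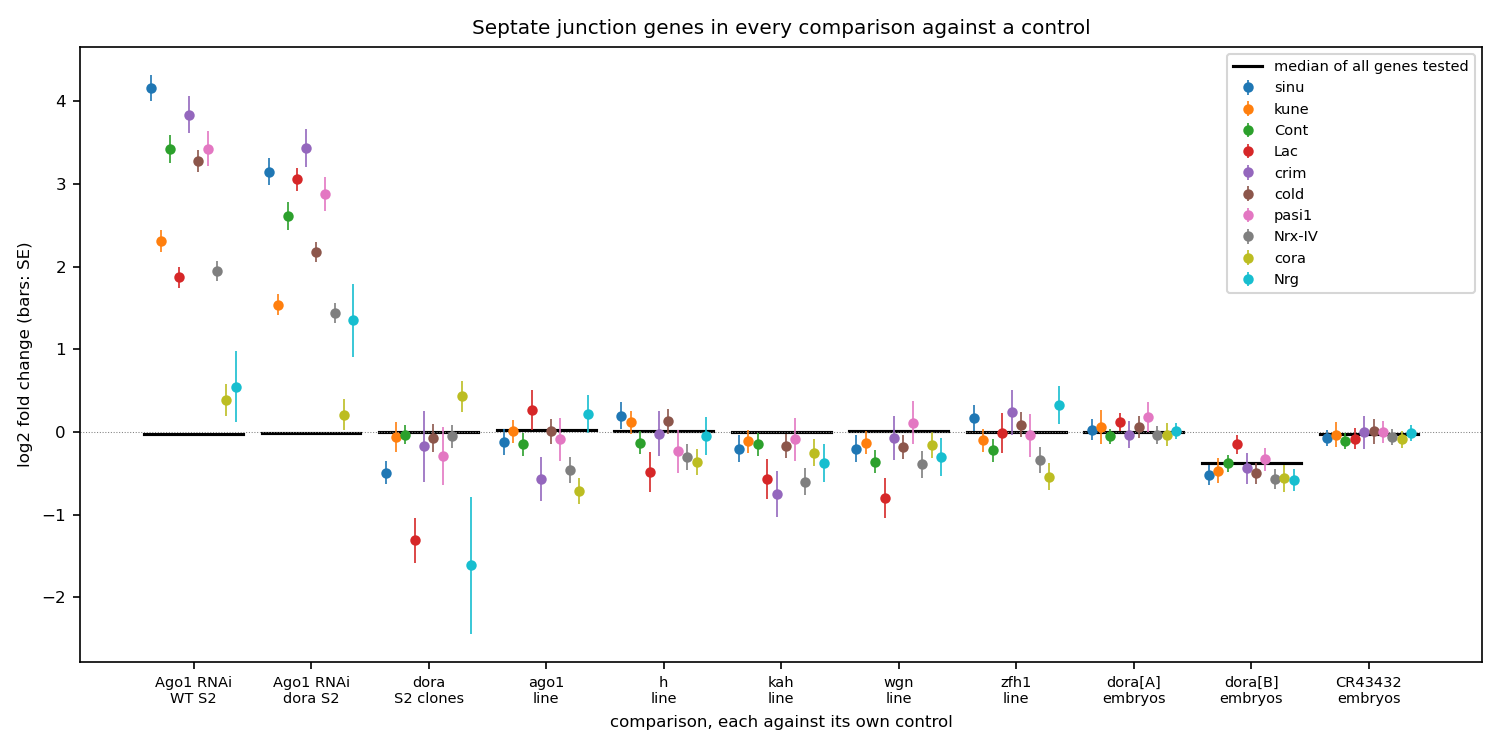
Log2 fold change of each gene with its SE in 11 comparisons, each against its own control, with a black bar at the median of all genes tested. The points reach 4.16 under Ago1 RNAi. Without RNAi 9 of 10 lie below 0 in the dora clones and the wgn line and 10 of 10 in the kah line, while 7 do in the h line and 6 in each of the ago1 and zfh1 lines; those of dora[A] and CR43432 embryos lie between -0.11 and 0.18, and those of dora[B] embryos lie around the shifted bar of -0.38.

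In dora[A] embryos none of the 10 genes was called over the mean of 3 times with edgeR, and 0% of 11153 genes were called at all. At an unadjusted p under 0.05 there were 0 of the 10 and 727 of all genes, and DESeq2 called 0 and 16. The differences ran from -0.05 (Cont, SE 0.09) to 0.18 (pasi1, SE 0.18), with 6 genes above and 4 below 0. CR43432 embryos, over the mean of 8-12 and 12-16 h, gave none with edgeR, against 0.0698% of 11457 genes. At an unadjusted p under 0.05 they gave 0 of the 10 and 385 of all genes, and DESeq2 called 0 and 41. There the range was -0.11 (Cont, SE 0.10) to 0.01 (cold, SE 0.15).

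In dora[B] embryos 7 of the 10 genes fell (sinu, kune, Cont, cold, Nrx-IV, cora and Nrg), against 24.7% of all 11424 genes called lower. The median of all genes was itself below 0 there, at -0.38, and the median of the 10 was -0.48. Nrg fell most (-0.58, SE 0.13, adjusted p = 0.00557). It stood at 1296 and 1296 CPM in WT and 1084 and 930.2 CPM in dora[B] at 8-12 h, at 1415 and 1461 against 1087 and 699 CPM at 12-16 h, and at 1689.7 and 1636 against 840.3 and 1214 CPM at 16-20 h. Every dora[B] library was below the WT libraries of its time. Nrx-IV fell by 0.57 (SE 0.12, adjusted p = 0.00386) and sinu by 0.52 (SE 0.12, adjusted p = 0.00516). Relative to the median of all genes these differences were -0.20 for Nrg, -0.19 for Nrx-IV and -0.14 for sinu, and over the 10 genes they ran from -0.20 to 0.23. Lac was the gene above that median by most, at -0.15 (SE 0.11, adjusted p = 0.279). The count of 7 was 2 without the filter on low counts and 0 to 6 when single libraries were left out. It was 0 without WT replicate 1 or 2 of 8-12 h or of 16-20 h, without either genotype's replicate 2 of 12-16 h or without dora[B] replicate 2 of 8-12 h. It was 1, 3 and 4 without dora[B] replicate 1 of 8-12, 12-16 and 16-20 h and 3 without dora[B] replicate 2 of 16-20 h. It was 3 with 16-20 h left out of the mean, an alternative chosen after seeing the data. The median of all genes moved as well, to -0.24 without the filter and to between -0.33 and -0.16 without single libraries. Dora mRNA was itself lower in dora[B] embryos (-0.65, SE 0.14, adjusted p = 0.00327).

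WT embryos show when these genes are used in development, and the earliest times come from the CR43432 set. Between 2-4 and 8-12 h, 9 of the 10 genes rose and Lac fell, against 30.9% of all 11457 genes called higher and 28.4% called lower. The scaffold gene cora rose most, from 19.4 and 25.6 CPM to 985 and 1047 CPM (5.50, SE 0.18, adjusted p = 7.37e-09). Nrx-IV rose from 75.1 and 76.2 CPM to 847 and 785 CPM (3.43, SE 0.15, adjusted p = 2.97e-08). Nrg rose from 142 and 138 CPM to 1113 and 1255 CPM (3.08, SE 0.16, adjusted p = 7.91e-08). The genes that led the embryonic rise were thus cora, Nrx-IV and Nrg, of which cora and Nrg had the smallest differences under Ago1 RNAi in WT S2 clones. The claudins rose as well, sinu from 54.8 and 51.3 CPM to 256 and 283 CPM (2.35, SE 0.15, adjusted p = 3.24e-07) and kune by 1.94 (SE 0.22, adjusted p = 2.03e-05). crim (2.23, SE 0.30, adjusted p = 7.47e-05) and Cont (1.67, SE 0.14, adjusted p = 2.65e-06) followed. The smallest rises were those of cold (0.66, SE 0.21, adjusted p = 0.0186) and pasi1 (0.50, SE 0.19, adjusted p = 0.0353). The call of Lac (-0.51, SE 0.19, adjusted p = 0.0368) ended without WT 2-4 h replicate 1 or either 8-12 h library. The call of cold ended without 2-4 h replicate 1 or 8-12 h replicate 2, and that of pasi1 without either of these and without the filter.

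Before that, between 0-2 and 2-4 h, 2 of the 10 genes rose and 3 fell, against 16.4% of all genes called higher and 19.2% called lower. Lac rose from 149 and 130.4 CPM to 919 and 587 CPM (2.43, SE 0.20, adjusted p = 4.52e-06). Among the times sampled, its highest mean came before those of the other genes, but no mRNA library falls between 2-4 and 8-12 h. sinu rose by 0.55 (SE 0.14, adjusted p = 0.0114). Nrx-IV (-0.66, SE 0.14, adjusted p = 0.0031), cora (-0.60, SE 0.15, adjusted p = 0.00908) and crim (-1.04, SE 0.30, adjusted p = 0.0177) fell. Without 0-2 h replicate 1 there were 2 calls, both higher, and without 0-2 h replicate 2 there were 3, all higher, while the median of all genes moved to 0.46. DESeq2 gave 4 higher and 2 lower, and RLE scaling gave 4 higher and 1 lower, with a median of all genes of 0.22, so the direction of the counts depends on the scaling. cora lost its call under both, crim under RLE scaling, and cora and Nrx-IV without the filter. The maternal mRNA osk stood at 1224 and 1667 CPM at 0-2 h and at 95.3 and 104 CPM at 2-4 h.

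After 8-12 h the genes parted. In the CR43432 set 4 of the 10 fell by 12-16 h, against 21.1% of all genes called lower: pasi1 (-0.94, SE 0.19, adjusted p = 0.00211), Lac (-0.89, SE 0.19, adjusted p = 0.00345), kune (-0.83, SE 0.21, adjusted p = 0.00858) and Cont (-0.64, SE 0.14, adjusted p = 0.00399). DESeq2 and RLE scaling gave 4 lower and 2 higher, adding cora and Nrg (0.48 each under both). The call of kune ended without either 12-16 h library (adjusted p = 0.0532 and 0.0504). In the WT embryos of the dora[A] set 3 fell over the same step (Cont, Lac and pasi1), against 15% of 11153 genes called lower. In those of the dora[B] set 2 fell (Cont and Lac), against 15.8% of 11424 genes. Cont and Lac were thus called in all 3 sets of WT embryos, each normalised on its own. The call of Cont ended when any 1 of 3 of the 4 libraries was left out in the dora[A] set (adjusted p = 0.0607 to 0.0821) and in the dora[B] set (0.0614 to 0.0924), and that of pasi1 in the dora[A] set likewise (0.0981 to 0.191). With replicate as a blocking term, kune passed too in the dora[A] set (-0.92, adjusted p = 0.0156) and in the dora[B] set (-0.67, adjusted p = 0.034). cora and Nrg did not pass in any set at this step with TMM scaling. In the CR43432, dora[A] and dora[B] sets cora gave 0.27, 0.34 and 0.5, and Nrg gave 0.27, 0.1 and 0.15. From 12-16 to 16-20 h, crim (-1.19, SE 0.29, adjusted p = 0.0125) and Nrx-IV (-0.61, SE 0.18, adjusted p = 0.033) fell in the dora[A] set, against 9.66% of genes called lower. The call of Nrx-IV ended under RLE scaling (0.0621), without the filter (0.0581) and without each of the 4 libraries (0.0612 to 0.329), and that of crim without either replicate 2 (0.136 and 0.167). In the dora[B] set none of the 10 was called with edgeR, against 14.5% of genes called either way. At an unadjusted p under 0.05 there were 3, all lower, against 3585 of all 11424 genes. DESeq2 called 1 of the 10 there and 2786 of all genes. Without 1 library in turn the dora[A] counts were 1 to 2 for the earlier step and 0 to 2 for the later one. The earlier step gave 1 without either WT 8-12 h library, and the later step gave 0 without WT 12-16 h replicate 2 or WT 16-20 h replicate 2 and 1 without WT 12-16 h replicate 1. In the dora[B] set the 12-16 h count was 1 without either WT 8-12 h library or WT 12-16 h replicate 1, and 4 with DESeq2 or RLE scaling.

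**Figure D4:**
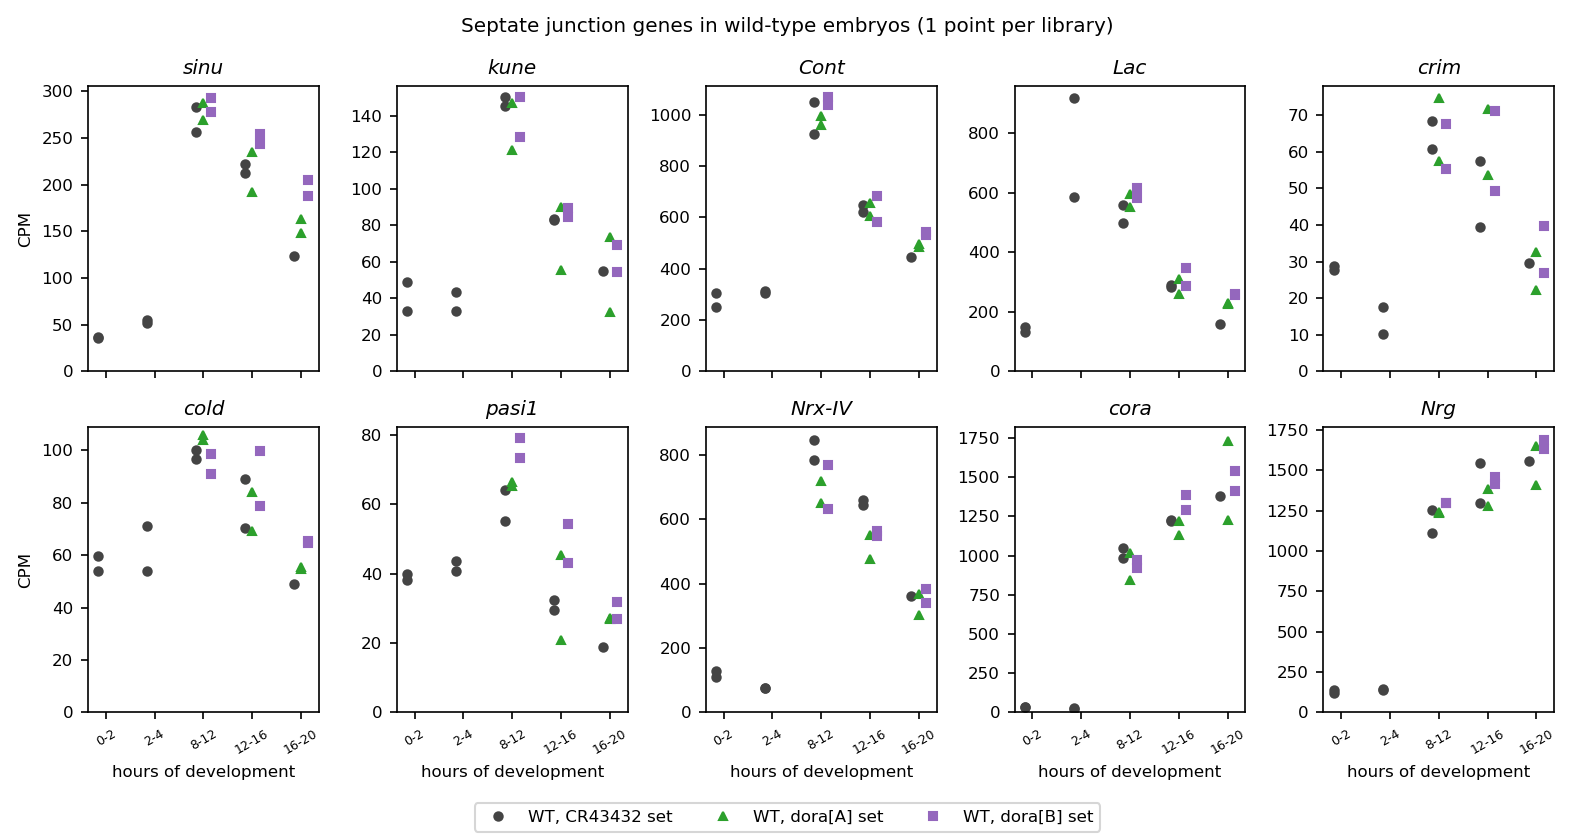
Levels of the 10 genes in CPM in WT embryos by hours of development, with 1 point per library and 1 symbol per set, each set normalised on its own. Of the times drawn, Lac has its highest mean at 2-4 h (919 and 587 CPM) and 7 genes have theirs at 8-12 h. cora and Nrg have their highest mean at 16-20 h in each set. No library falls between 2-4 and 8-12 h.

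Over the 9 WT libraries of the CR43432 set, the log2 level of each gene was set against the mean of the 10. That mean includes the gene itself, which raises its correlation. The correlation was 0.994 for Cont, 0.976 for kune and 0.958 for sinu, and 0.326 for Lac and 0.351 for pasi1, as a description over libraries that share 5 times. Of 11447 other genes, those with the pattern most like the mean were CG34377 and nerfin-1 (0.992 each), lncRNA:CR44272 and CG17784 (0.991 each) and CG32182 (0.99). Those most like sinu were otk (0.996), mgl, klu and bab2 (0.995 each) and CrebA (0.994).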

How the data were processed

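Counts per gene were deposited by the authors in 6 tables, for 68 mRNA libraries. Reads were placed on dm6 with STAR 2.4 and counted with HTSeq, per the submitters' processing notes, whose order and strand setting are not given. The RNAi libraries were made with a Kapa mRNA kit and read in pairs, the others with a directional poly(A) kit and single reads, per the labels' protocols. Rows that name no gene held 6.02 to 20.5% of counts and were left out, and 17226 of 17477 genes matched a symbol.

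Each table was fitted alone with edgeR 4.0.16 in R 4.3.3: TMM scaling, filterByExpr, 1 mean per group, the quasi-likelihood test, Benjamini-Hochberg adjustment over all genes tested and a call at adjusted p under 0.05. SE was the log2 fold change divided by the root of F. The fit was tested on simulated data. Alternatives were DESeq2 1.42.0, RLE scaling, no filter, a replicate block, the compared groups alone, the 16-20 h CR43432 libraries and each library left out. Clone numbers in the titles pair the RNAi libraries (correlation of deviations 0.52 to 0.69), and the labels call WT embryos paired. No 2 libraries of a group agreed within sampling noise (lowest chi-square per gene 15.1 in 42 pairs).

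All 10 genes are named, as are the called genes with the 4 largest changes per direction of the other lists and the 5 genes most alike in course. One wgn column was matched by its group only. The genes and lists were chosen with earlier results of these data known. Small RNA libraries are not used here, and no sequence is printed.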

Additional observations from a re-analysis of the deposited data

How the results depend on the processing

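Of the counts of called genes under settings other than leaving out a library, 72 stayed within 1.5 times the reported count and 10 did not. Of those without 1 library, 83 did and 27 did not. Counts of 0 that stayed at 0 are among those that stayed, so these numbers overstate how well counts above 0 held. The 10 genes kept their sign under Ago1 RNAi in all 11 alternatives of each genotype. DESeq2 called 1 of the 10 genes between S2 clones, 1 in the ago1 line and 1 from 12-16 to 16-20 h in the dora[B] set, where edgeR called 0. Of all genes, DESeq2 called 795, 290 and 2786 in these comparisons. DESeq2 and RLE scaling each called 4 in place of 2 at 12-16 h in the dora[B] set. From 12-16 to 16-20 h in the dora[A] set RLE scaling gave 1 and no filter gave 1 in place of 2. In dora[B] embryos the count of 7 was 2 with no filter and 3 with 16-20 h left out, an alternative chosen after seeing the data.

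With the replicate block the adherens junction and polarity genes called in dora clones numbered 9 in place of 5, and the block moved no other count by over 1.5 times. For the ago1, h, wgn and zfh1 lines no paired analysis was possible because they share fewer than 2 replicate numbers with WT. Numbers that pair no samples by label gave correlations of -0.26 to 0.17 among S2 clones and -0.12 to 0.03 in the trigger lines.

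Without single libraries the adherens junction and polarity counts ran from 3 to 8 in WT and 3 to 4 in dora clones. The counts of the 10 genes ran from 0 to 1 between S2 clones and in the ago1 line, from 0 to 6 in dora[B] embryos and from 2 to 4 from 0-2 to 2-4 h. They ran from 1 to 2 at 12-16 h in the dora[A] set and in the dora[B] set, and from 0 to 2 at 16-20 h in the dora[A] set. The cause of these shifts was not tested. The lines and embryos have 2 libraries per group, and crim had 26 to 102 counts in the control libraries of the RNAi set, which limits the precision of these values.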
